A study of Drosophila melanogaster with 18 samples.

Results

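The nuclear genes that encode the mitochondrial respiratory chain were followed through the opening hours of Drosophila melanogaster embryogenesis, in wild type embryos and in embryos of an orb2 mutant. A gene belonged to the group when its FlyBase symbol began with ND-, UQCR-, COX, ATPsyn or Sdh, symbols being matched through FlyBase gene numbers to Ensembl's BDGP6.54 gene models. This rule took 88 genes, of which 72 were listed in at least 1 of the deposited tables, out of 9236 genes listed in all. There were 64 members in the 0-1h table, 67 in the 1-2h table and 72 in the 2-3h table, and 64 were in all 3. By enzyme, the 88 members were 40 genes of complex I, 8 of complex II, 9 of complex III, 16 of complex IV and 15 of the ATP synthase (complex V). They included 24 duplicates, whose symbol is in most cases that of another subunit followed by L or by L and a digit, and 1 assembly factor, Sdhaf3. The parent genes of COX6AL and COX6AL2 (levy), COX6CL (cype) and ATPsynepsilonL (sun) carry other symbols, outside the rule. Of the 16 members listed in no table used here, 15 were duplicates and the other was ND-B8, a small subunit of complex I.

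The respiratory chain sits in the inner mitochondrial membrane. Complex I (NADH dehydrogenase, symbols ND-) and complex II (succinate dehydrogenase, Sdh) pass electrons to ubiquinone, complex III (UQCR-) passes them to cytochrome c, and complex IV (cytochrome c oxidase, COX) passes them to oxygen, while the ATP synthase (ATPsyn) uses the resulting proton gradient to make ATP. Most subunits are encoded in the nucleus and a few in the mitochondrial genome. The early fly embryo inherits its mitochondria and much of its mRNA from the mother and divides rapidly before its own genome is broadly transcribed.

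The study compared orb2-delta-zz embryos with w1118 embryos, labelled wild type and described as the control from before injection, with 3 libraries for each of the collections made 0-1h, 1-2h and 2-3h post egg-lay, 18 in all. Orb2 is a cytoplasmic polyadenylation element-binding protein, an RNA-binding regulator of translation, and the ZZ domain named in the allele is its zinc-binding domain. Total RNA from whole embryos was depleted of ribosomal RNA and sequenced with a strand-specific kit. The sources used here do not say how the mutant line was derived, or whether replicates came from separate parents or cages, so p-values measure the spread between these libraries. In RNA from whole embryos, fewer cells of a type and less RNA per cell cannot be told apart.

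Within-group Pearson correlations of log2 values were 0.961 or higher for every library. Transcripts of the targeted gene, orb2, were present in all 18 libraries, at 24.7 to 35.1 TPM at 0-1h, and were lower in the mutant at that time by 0.35 on the log2 scale (SE 0.0580, limma adjusted p = 0.00233); a value over the whole gene does not test for the deleted domain. All 6 maternal and all 14 early zygotic marker genes examined were listed. Of the early zygotic markers 12 of 14 were below wild type in the mutant at 0-1h (median change -0.42 on the log2 scale), 14 of 14 above it at 1-2h (median 0.44) and 10 of 14 below it at 2-3h (median -0.18), with 0 of 14 called at any time. No eggshell marker of 10 was listed at 0-1h or 1-2h, and 1 was listed at 2-3h. Of 8 late embryo markers 3 were listed at 0-1h, summing to 3.157 to 3.615 TPM in wild type and 0.648 to 2.422 TPM in the mutant. At 1-2h 4 were listed, summing to 12.9 to 50.04 TPM in wild type and 6.29 to 10.9 TPM in the mutant. Their sums overlapped at 2-3h, and their part in the members' values was not tested. At 2-3h the maternal markers summed to 182, 505 and 821 TPM in the 3 wild type libraries and to 320.0, 385 and 372 TPM in the mutant libraries, so wild type libraries differed more among themselves than mutant libraries did. In the order of the collections, the median SD of log2 values was 0.0719, 0.164 and 0.239 for wild type and 0.0601, 0.0796 and 0.102 for the mutant.

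Respiratory chain mRNAs were abundant from the start. TPM, a transcript abundance corrected for length and scaled to a common total, allows genes to be compared with each other. Among the 63 members listed at 0-1h that are not duplicates, the wild type mean ranged from 25.7 to 1486 TPM with a median of 151 TPM, against a median of 49.97 TPM over all listed genes, and 58 of the members listed at that time lay above that median. The median of these 63 members stood at the 86.0th percentile of all listed genes at 0-1h, the 87.2nd at 1-2h and the 89.2nd at 2-3h. Their own median was 151, 141 and 130 TPM in that order. The median of all listed genes was 49.97, 35.99 and 19.58 TPM, as the number listed grew from 7617 to 8188 and 9141. The members' TPM together made up 1.36% of the wild type total at 0-1h, 1.35% at 1-2h and 1.27% at 2-3h.

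Genes of the ATP synthase headed the order of levels. ATPsynbeta, the catalytic subunit, stood at 1479, 1501 and 1478 TPM in the 3 wild type libraries at 0-1h. ATPsynC, the subunit of the membrane rotor ring, stood at 1257, 1237 and 1368 TPM. The next was ND-MLRQ, named for complex I and assigned to complex IV in mammals, with 1079, 915 and 979.9 TPM. The lowest of ATPsynC lay above the highest of ND-MLRQ, and the lowest of ATPsynbeta above the highest of ATPsynC, so neighbours in this order did not overlap.

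The lower end of the order held genes of other roles. ND-24, a core subunit of complex I that carries an iron-sulfur cluster, had 37.5, 38.8 and 36.3 TPM. Sdhaf3, an assembly factor of complex II rather than a subunit, had 25.4, 22.0 and 29.5 TPM. ND-51L1, a duplicate of the core subunit gene ND-51, had 0.606, 0.596 and 0.551 TPM, more than an order of magnitude under every other member listed at 0-1h.

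At 0-1h the mutant differed from wild type in 8 of the 64 members tested, which is 12.5% of them, against 21.3% of all 7559 genes tested at that time. The normalized count, the authors' count scaled between libraries, was compared on log2(value + 1), so that a fold change is on that scale. COX5B, ND-13A, ND-B12, SdhD and ATPsyndelta were lower in the mutant and ND-MNLL, ND-15 and ND-MLRQ were higher. Over all genes, 11.2% were called higher and 10.1% lower. All 3 mutant libraries lay below all 3 wild type libraries in 11 members and above them in 6, while 18.9% of all genes did the one and 20.1% the other, 38.9% together. The median change over members was -0.058 on the log2 scale, against -0.0080 over all genes. Of the 64 members 47 were below 0, against 3936 of all 7559 genes. Early zygotic markers were also mostly below 0 at this time, and their part in the members' values was not tested. The 95% confidence interval of the change lay within 1.5-fold in either direction for 60 of the 64, against 78.0% of all genes.

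**Figure D1:**
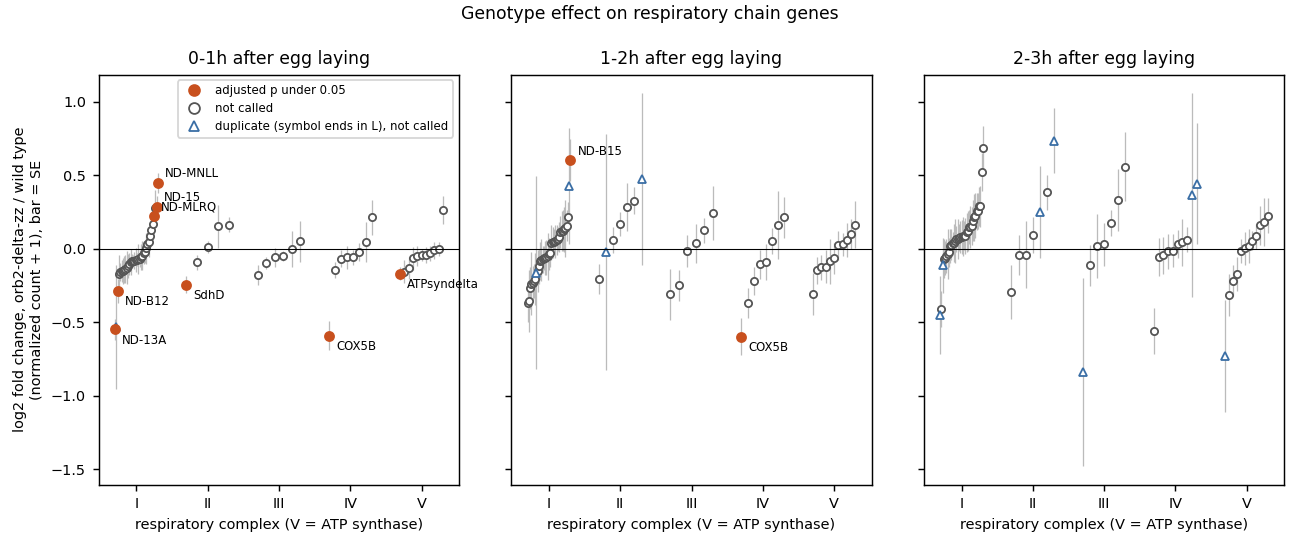
Log2 fold change of each tested member in orb2-delta-zz against wild type (vertical axis, log2 of normalized count + 1, bars are SE) by enzyme complex and time, sorted within a complex. Filled circles are members with limma adjusted p under 0.05 (8 at 0-1h, 2 at 1-2h, 0 at 2-3h), and triangles are duplicates, whose errors are wide.

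COX5B, the subunit of cytochrome c oxidase whose mammalian counterpart binds zinc, fell in the mutant. It lies on chromosome arm 2L, positions 6557800 to 6559308, plus strand of BDGP6.54. Its normalized counts at 0-1h were 1909.6, 2452 and 1843 in wild type and 1433, 1301 and 1357 in orb2-delta-zz. The groups did not overlap, and the change was -0.59 (SE 0.0998, limma adjusted p = 0.00269), to 0.664 of the wild type level. Of the 8 subunits of complex IV tested at this time it was the only one called. The others ranged from -0.14 for COX5A, another nuclear-encoded subunit, to 0.21 for COX7C, a small membrane subunit.

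ND-13A, an accessory subunit of the arm of complex I that takes electrons from NADH, fell by nearly as much. It lies on chromosome arm 2L, positions 5099177 to 5100288, minus strand. Normalized counts at 0-1h were 749.9, 778 and 752 in wild type and 506, 521 and 531 in orb2-delta-zz, with a wide gap between the groups. The change was -0.55 (SE 0.0712, limma adjusted p = 0.000518). It shares 118 bases with CG4230 on the opposite strand, and CG4230 was higher in the mutant by 0.22 (SE 0.0557, limma adjusted p = 0.0218). The sources used here do not say whether the counting took account of strand. COX5B and ND-13A kept their calls at 0-1h in all 13 alternative settings tried.

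ND-MNLL, a small accessory subunit of the membrane arm of complex I, rose. It lies on chromosome X, positions 7893053 to 7893798, minus strand. All 746 of its bases lie within the annotated span of CG45089 on the same strand. CG45089 is not among the genes listed in the tables used here, and the assignment of reads between the pair was not tested. Normalized counts at 0-1h were 1546, 1779.8 and 1652 in wild type and 2211, 2138 and 2439.5 in orb2-delta-zz. Every mutant library was above every wild type library, and the change was 0.45 (SE 0.0693, limma adjusted p = 0.00162), kept in all 13 alternatives.

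ND-15, a small accessory subunit of complex I, was also higher at 0-1h. Its normalized counts were 1278, 1436 and 1503 in wild type and 1689, 1635 and 1809 in orb2-delta-zz, without overlap, and the change was 0.29 (SE 0.0716, limma adjusted p = 0.0199). It is annotated over 41305 bases on chromosome arm 2L, positions 114726 to 156030, plus strand, a span that takes in or touches several other genes on both strands. ND-MLRQ had normalized counts of 4914, 4509.7 and 4416 in wild type and 5414, 4919 and 5823 in orb2-delta-zz. The lowest mutant library of ND-MLRQ was level with the highest wild type library, and the change was 0.22 (SE 0.0656, limma adjusted p = 0.0393).

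The remaining members called at 0-1h were lower in the mutant by smaller amounts. ND-B12, an accessory subunit of the membrane arm of complex I, had normalized counts of 597, 611 and 665 in wild type and 499, 500.4 and 535 in orb2-delta-zz, a change of -0.29 (SE 0.0813, limma adjusted p = 0.0328). ATPsyndelta, a subunit of the central stalk of the ATP synthase, had 3794, 4090.2 and 3992 in wild type and 3572, 3570.5 and 3418 in orb2-delta-zz, a change of -0.17 (SE 0.0447, limma adjusted p = 0.0247). In both genes the mutant libraries were all below the wild type libraries. Over the 13 alternatives the change of ND-B12 ran from -0.32 to -0.24, that of ATPsyndelta from -0.20 to -0.13, that of ND-15 from 0.22 to 0.34, that of ND-MLRQ from 0.16 to 0.28 and that of SdhD from -0.28 to -0.21, so the direction held in each while the calls did not. Calls at 0-1h were lost without wild type replicate 1 for ND-15 (adjusted p from limma 0.0653) and ND-B12 (0.0564), without wild type replicate 2 for ATPsyndelta (0.0517) and ND-MLRQ (0.0735), without wild type replicate 3 for ATPsyndelta (0.0718), ND-B12 (0.108) and ND-MLRQ (0.121), without mutant replicate 1 for SdhD (0.0563), ND-15 (0.0512), ND-B12 (0.0979), ND-MLRQ (0.103) and ATPsyndelta (0.0593), without mutant replicate 2 for ND-B12 (0.0957) and ATPsyndelta (0.0589), and without mutant replicate 3 for ND-15 (0.0657), ND-MLRQ (0.112) and ATPsyndelta (0.0772). On TPM in place of normalized counts, 10 members were called at 0-1h, 6 higher and 4 lower, against 16.5% of all genes, and ATPsyndelta lost its call there (limma adjusted p = 0.128).

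**Figure D2:**
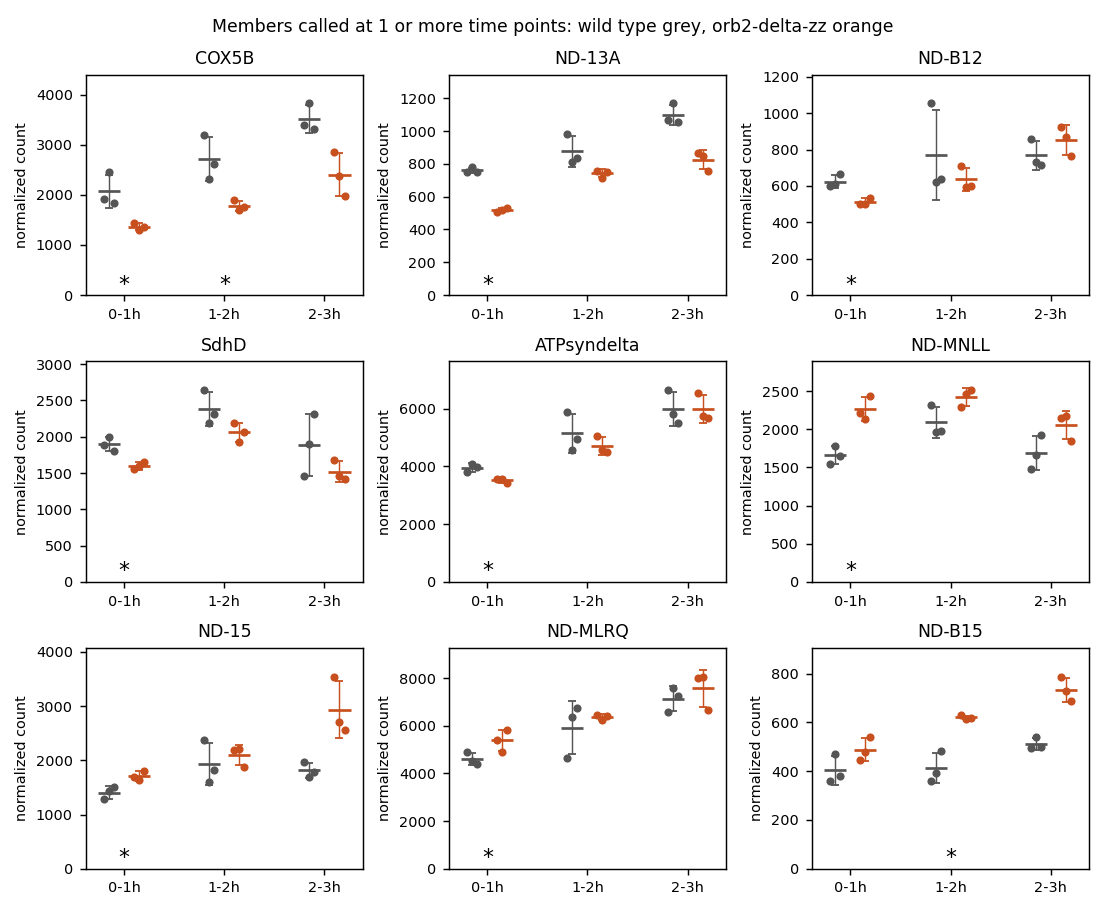
Normalized count (vertical axis, from 0) of the 9 members called at 1 or more times, by collection time, with 1 point per library, the group mean as a line and the SD as a bar. Stars mark times with limma adjusted p under 0.05. COX5B was below wild type at every time, while ND-B12 was below it at 0-1h and overlapped it later.

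Succinate dehydrogenase, the smallest enzyme of the chain, was uneven across its 4 subunits. SdhD, a membrane anchor subunit, had normalized counts at 0-1h of 1889, 1995 and 1800.1 in wild type and 1549.8, 1590.4 and 1656 in orb2-delta-zz, with no overlap and a change of -0.24 (SE 0.0567, limma adjusted p = 0.0137). SdhC, the other membrane anchor, was above wild type at every time and did not pass the test. At 0-1h it lay near the threshold, and was called on TPM (limma adjusted p = 0.0214), with a minimum mean normalized count of 50 (0.0468), after rescaling by trimmed means (0.0436) and without wild type replicate 2 (0.0346). Its normalized counts were 1833, 1970.0 and 1896 in wild type and 2065, 2106 and 2209 in orb2-delta-zz at 0-1h, 1296, 1445 and 1292 in wild type and 1707, 1665 and 1679 in orb2-delta-zz at 1-2h and 1667, 1465 and 1373 in wild type and 1981, 2024 and 1854 in orb2-delta-zz at 2-3h. All mutant libraries were above all wild type libraries at each of the 3 times. In the earliest collection the change of SdhC was 0.16 (SE 0.0515, limma adjusted p = 0.0503), in the next 0.33 (SE 0.0901, limma adjusted p = 0.0758) and in the last 0.38 (SE 0.1197, limma adjusted p = 0.171).

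SdhA, the flavoprotein subunit that oxidises succinate, showed 6882, 7402 and 7048 in wild type and 7116, 7317 and 7067 in orb2-delta-zz at 0-1h, and the groups overlapped at all 3 times. In the order of the collections its change was 0.012, 0.061 and -0.043, and the 95% confidence intervals ran from -0.081 to 0.10, -0.15 to 0.27 and -0.36 to 0.28. The sign of these small values turned when single libraries were left out. SdhB, the iron-sulfur subunit, had normalized counts of 2621, 2460.1 and 2429 in wild type and 2963, 2679 and 2784 in orb2-delta-zz at 1-2h. All mutant libraries were then higher, but the change of 0.17 (SE 0.0821, limma adjusted p = 0.266) did not pass, and the groups overlapped at 0-1h and 2-3h.

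At 1-2h 2 of the 67 members tested were called, against 7.37% of all 8095 genes. COX5B fell and ND-B15 rose, while 3.85% of all genes were called lower and 3.52% higher. All mutant libraries lay above all wild type libraries in 6 members and below them in 7, against 16.5% and 16.3% of all genes, 32.8% together. The median change over members was -0.023 against -0.0074 over all genes, and turned to 0.055 against 0.068 on TPM. All 14 early zygotic markers were above 0 at this time, against 32 of the 67 members and 3951 of all 8095 genes. The part of the markers in these values was not tested.

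COX5B at 1-2h had normalized counts of 3194, 2324 and 2622 in wild type and 1890.0, 1688 and 1757 in orb2-delta-zz. The highest mutant library lay below the lowest wild type library, and the change of -0.60 (SE 0.127, limma adjusted p = 0.0312) was close in size to that at 0-1h. ND-B15, an accessory subunit of the membrane arm of complex I on chromosome arm 2R, positions 14756516 to 14757072, plus strand, had normalized counts of 362, 392 and 482 in wild type and 629, 615 and 619 in orb2-delta-zz. The mutant libraries lay close together above the wild type ones, a change of 0.60 (SE 0.141, limma adjusted p = 0.0441), which is 1.52 times the wild type level. At this time deviations of same-numbered libraries of the genotypes correlated at 0.129 to 0.173, which does not settle whether the numbers pair libraries. With the replicate number as a block COX5B was called and ND-B15 was not (limma adjusted p = 0.0710), against 6.11% of all genes called in either direction and 2.62% called higher. Without single libraries the count of members called at 1-2h ran from 0 to 3. COX5B lost its call without wild type replicate 3 (limma adjusted p = 0.0993) and without mutant replicate 1 (0.0922), 2 (0.135) or 3 (0.132), and ND-B15 lost its call without wild type replicate 1 (0.0565) and without mutant replicate 1 (0.163), 2 (0.163) or 3 (0.177). Wild type replicate 2 held the highest summed TPM of late embryo markers at this time, 50.04. The other wild type libraries held 18.4 and 12.9, and the mutant libraries 6.29 to 10.9. Without wild type replicate 2, 3 members were called, SdhC being the addition, and 15.6% of all genes.

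At 2-3h 0 of the 71 members tested passed the limma test, against 3.28% of all 9014 genes (1.55% higher, 1.73% lower), and 7 members, or 9.86%, had an unadjusted p under 0.05, against 16.3% of all genes. COX7AL, a duplicate of COX7A, was listed but lay under the minimum mean normalized count of 10. On TPM 2 members were called, ND-15 and ND-B15, both higher, against 3.58% of all genes. The median change over members was 0.061 against -9.42e-05 over all genes. Of the 71, 48 were above 0, against 4505 of all 9014 genes. All mutant libraries lay above all wild type libraries in 13 members, against 12.2% of all genes, and below them in 5, against 11.4% (23.5% together). The 95% confidence interval lay within 1.5-fold for 51 of the 71, against 34.7% of all genes. Errors were also smaller in members, with a median SE of 0.127 without duplicates against 0.215 over all genes, so these shares do not compare sizes of change alone.

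COX5B at 2-3h had normalized counts of 3388, 3828 and 3310.0 in wild type and 2853, 2379.9 and 1979.8 in orb2-delta-zz, again without overlap, and a change of -0.56 (SE 0.156, limma adjusted p = 0.134). ND-13A at 2-3h had 1066, 1169.8 and 1058 in wild type and 869, 849 and 759 in orb2-delta-zz, without overlap, and a change of -0.41 (SE 0.122, limma adjusted p = 0.154). At 1-2h the same gene had 983, 811 and 836 in wild type and 759, 716 and 753 in orb2-delta-zz, a narrower gap and a change of -0.23 (SE 0.116, limma adjusted p = 0.264). COX5B and ND-13A were thus below wild type in every library at every time, and the test passed for COX5B at 0-1h and 1-2h and for ND-13A at 0-1h.

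ND-15 had the largest member change at 2-3h among genes that are not duplicates. Its normalized counts were 1971, 1684 and 1780.2 in wild type and 3535, 2699 and 2558 in orb2-delta-zz, without overlap, and the change was 0.68 (SE 0.154, limma adjusted p = 0.0755). Its groups overlapped at 1-2h, where its change was 0.13. Of 9 genes tested at 2-3h whose annotated span overlaps ND-15, 2 were called. CG11454, which shares 905 bases with it on the same strand, had a change of -0.99 (SE 0.127, limma adjusted p = 0.0117), and Pus10, which shares 1767 bases on the opposite strand, had a change of 1.53 (SE 0.253, limma adjusted p = 0.0292). The other 7 did not pass. At 0-1h, where ND-15 was called, 2 of 5 such genes were called, both higher: CG11454 by 0.23 (SE 0.0638, limma adjusted p = 0.0286) and CG3436 by 0.36 (SE 0.0557, limma adjusted p = 0.00167). The assignment of reads in these overlaps was not tested.

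ND-B15 at 2-3h had normalized counts of 496, 541 and 498 in wild type and 786, 728 and 689 in orb2-delta-zz, the mutant libraries all above the wild type, and a change of 0.52 (SE 0.127, limma adjusted p = 0.0932). UQCR-6.4, a small subunit of complex III, had 72.8, 96.1 and 98.9 in wild type and 121, 162 and 113 in orb2-delta-zz, without overlap, and a change of 0.56 (SE 0.232, limma adjusted p = 0.302). Leaving out wild type replicate 1, the library with the least maternal marker RNA, gave 4 members called at 2-3h, all higher: ND-15 (limma adjusted p = 0.0213), ND-B15 (0.0383), SdhC (0.0276) and UQCR-C2, a core protein of complex III. In the same setting 18.5% of all genes were called, and leaving out any other library gave 0 members.

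Whether a member's genotype effect differed between times was tested directly in a joint fit of the 18 libraries. Of 64 members, 0 passed in any of the 3 contrasts, with 4 at an unadjusted p under 0.05 between 0-1h and 1-2h (3.2% of all genes), 2 over the whole span (11.5%) and 4 between 1-2h and 2-3h (10.3%). Of 7470 genes, 0.12% passed for the step from 0-1h to 1-2h, 0.79% for the step from 1-2h to 2-3h, and 1.89% over the whole span. Without wild type replicate 1 of 2-3h, ND-13B passed over the whole span, against 16.7% of all genes, and ND-13B, ND-B14.5A and UQCR-C2 passed for the second step, against 18.7%. On TPM ND-B14.5A alone passed for the second step, against 0.857%. The member with the smallest p was ND-B14.5A, an accessory subunit of complex I. Its genotype effect was -0.37 at 1-2h and 0.19 at 2-3h, a difference of 0.56 (SE 0.166, limma adjusted p = 0.184). Between these times ND-15 differed by 0.55 (SE 0.201, limma adjusted p = 0.329).

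Summed over each enzyme, TPM showed small shifts of different sign. Complex IV at 0-1h summed, in TPM, to 1713, 1779.5 and 1746 in wild type and 1666, 1637 and 1628 in orb2-delta-zz, so the mutant libraries were all lower. They were again all lower at 1-2h, at 1790.9 to 1815.6 against 1846.5 to 1931.7 in wild type, and the groups overlapped at 2-3h. Mean sums were 1746 TPM in wild type and 1644 TPM in the mutant at 0-1h, and 1875.5 and 1803.5 TPM at 1-2h. COX5B, 1 gene of the sum, averaged 217 and 147 TPM at 0-1h and 247 and 173 TPM at 1-2h, so it made up most of these gaps. ND-MLRQ, assigned to complex IV in mammals, was counted with complex I here. Complex I at 2-3h summed, in TPM, to 5295, 5283 and 5307 in wild type and 6028, 5931 and 5817 in orb2-delta-zz, so the mutant libraries were all higher. The same held at 0-1h, with 5091.6 to 5412.1 in the mutant against 4954.0 to 5076.3 in wild type. It held at 1-2h as well, with 5488.9 to 5655.3 against 5141.3 to 5392.2. ND-MLRQ, the most abundant complex I member, averaged 991 TPM in wild type and 1182 TPM in the mutant at 0-1h. At 1-2h its means were 1127 and 1273 TPM. Gene by gene on normalized counts, 24 of the 34 complex I members tested were below 0 at 0-1h, and 19 of 35 at 1-2h. The higher sums were thus not a rise of most complex I genes at these 2 times. The ATP synthase at 2-3h summed, in TPM, to 4182, 4182 and 4259.5 in wild type and 4399, 4412 and 4539 in orb2-delta-zz, also all higher in the mutant. All members at 2-3h summed, in TPM, to 12618, 12640.0 and 12660.0 in wild type and 13540.0, 13635 and 13525 in orb2-delta-zz, or 1.27% of the wild type and 1.36% of the mutant total. These sums weigh abundant genes most and are shares of a fixed total. At 2-3h the log2 ratio of the sums was 0.16 for complex I, where the mean change of its genes on log2 normalized counts was 0.091, or 0.11 without duplicates. For the ATP synthase the ratio of the sums was 0.081 and the mean over genes -0.060, or 0.00038 without the duplicate ATPsynbetaL. No test was made on the sums.

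**Figure D3:**
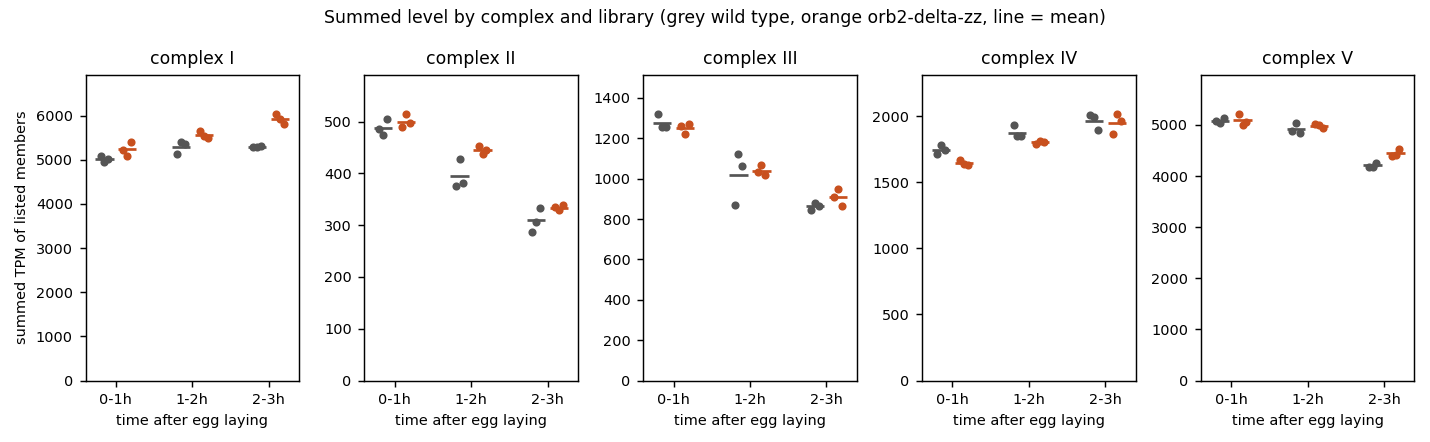
Summed TPM of the listed members of each complex (vertical axis, from 0) by collection time, with 1 point per library and the group mean as a line. Complexes II, III and V were lower at 2-3h than at 0-1h in both genotypes. The complex I sum was higher in all 3 orb2-delta-zz libraries than in wild type at each time, with ND-MLRQ its most abundant gene. By gene, 24 of 34 complex I members were below 0 at 0-1h on normalized counts.

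From 0-1h to 2-3h most members kept or gained their share of the transcriptome while a minority lost it. The tables of the 3 times were normalized separately, so these levels are set side by side on TPM and not tested. In wild type 12 of the 64 members listed at all times had at 2-3h a ratio of (TPM + 1) to 0-1h of 0.5 or less, or 18.8%, against 32.4% of all 7529 genes. In the mutant there were 10, against 33.2% of all genes, and the same 10 were among the 12. The median log2 ratio over members was 0.11 in wild type and 0.14 in the mutant, against -0.32 and -0.38 over all genes. All wild type libraries at 2-3h lay above all those at 0-1h in 28 members, or 43.8%, against 29.4% of all genes, and below them in 19, against 49.2%. In the mutant 30 members lay above, against 29.0% of all genes, and 19 below, against 55.6%.

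Complex III had the highest share of members with a ratio of 0.5 or less in wild type, 4 of 6, against 4 of 34 in complex I, 1 of 5 in complex II, 1 of 8 in complex IV and 2 of 11 in the ATP synthase. These counts leave out subunits outside the naming rule. Of complex III, Cyt-c1, RFeSP and ox averaged 181, 108 and 298 TPM in wild type at 0-1h. At 2-3h they averaged 263, 110 and 295 TPM. UQCR-6.4 stood in wild type at 80.5, 74.6 and 114 TPM at 0-1h, 25.3, 41.0 and 30.0 at 1-2h and 13.2, 17.0 and 17.7 at 2-3h. In the mutant, in the same order of collections, it stood at 92.1, 91.9 and 96.7 TPM, then at 36.6, 41.8 and 40.5 and then at 21.2, 29.9 and 22.2. Each collection lay below the one before it in both genotypes. The ratio of (TPM + 1) of UQCR-6.4 at 2-3h to 0-1h was 0.187 in wild type and 0.269 in the mutant.

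UQCR-C2 stood in wild type at 171, 158 and 172 TPM at 0-1h, 48.3, 94.6 and 66.6 at 1-2h and 48.9, 33.8 and 27.7 at 2-3h. Its wild type libraries spread widely at the later times, and the lowest at 1-2h lay just under the highest at 2-3h. In the mutant, in the same order of collections, it stood at 166, 171 and 159 TPM, then at 55.8, 63.7 and 53.6 and then at 48.0, 43.4 and 48.4. UQCR-C1, the partner core protein, and UQCR-11, a small subunit, were also at 0.5 or less in wild type, with means of 208 and 394 TPM at 0-1h and 101 and 192 TPM at 2-3h. UQCR-14 and UQCR-Q, small subunits of the same complex, had mean ratios of 1.38 and 1.06, so the subunits of this enzyme did not keep a common course.

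**Figure D4:**
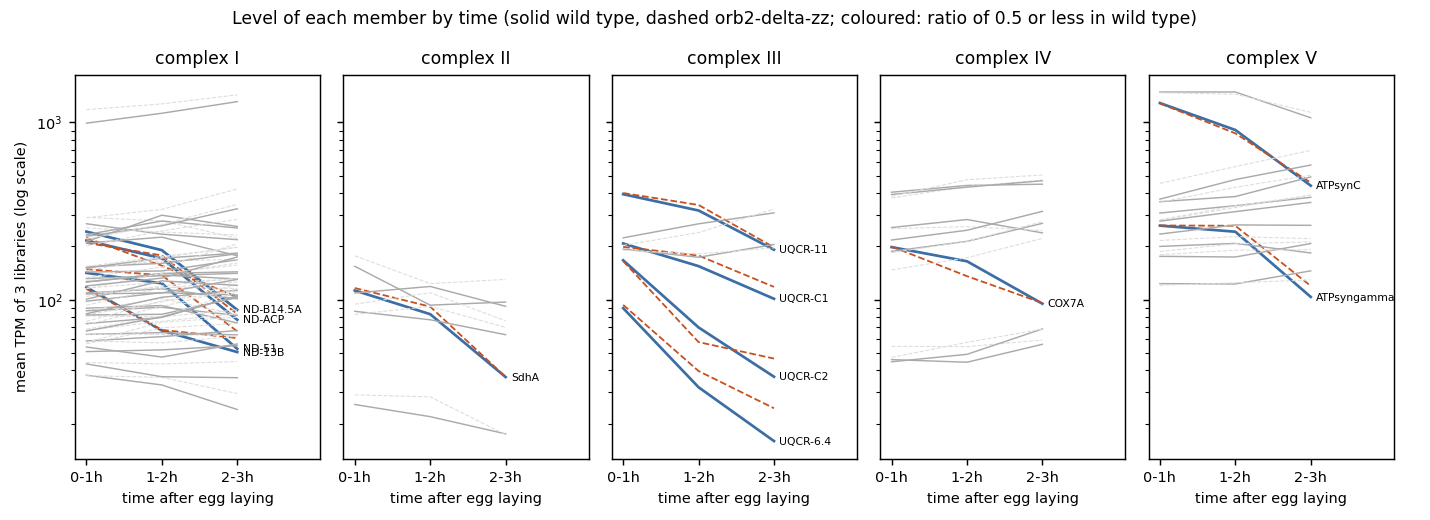
Mean TPM of each member that is not a duplicate (vertical axis, log scale) by collection time and complex, solid for wild type and dashed for orb2-delta-zz. Coloured lines are the 12 members with a wild type ratio of (TPM + 1) of 0.5 or less from 0-1h to 2-3h, 4 of them in complex III.

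Single members of the other enzymes shared that course. SdhA stood in wild type at 112, 111 and 116 TPM at 0-1h, 79.0, 94.5 and 75.3 at 1-2h and 33.5, 36.1 and 40.3 at 2-3h. The mutant libraries gave 39.8, 33.5 and 37.0 TPM at 2-3h, overlapping wild type. ATPsynC, second in level at 0-1h, averaged 1287 TPM there and 440.3 TPM at 2-3h. ND-ACP, the mitochondrial acyl carrier protein, ND-B14.5A, ND-13B, the core subunit gene ND-51, COX7A and ATPsyngamma, the rotating stalk of the ATP synthase, completed the 12.

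Among the members listed at all times, apart from the duplicate ND-51L1, the highest wild type ratio of (TPM + 1) was 1.56. ATPsynG, a subunit of the membrane sector of the ATP synthase, stood in wild type at 390.1, 390.0 and 329 TPM at 0-1h and 594, 569 and 564 at 2-3h. ND-ASHI, an accessory subunit of complex I, stood at 67.4, 68.7 and 63.9 TPM and later at 106, 105 and 103 TPM. In both genes the collections did not overlap, and both mean ratios were 1.56. The ratio of COX5B was 1.45 in wild type and 1.502 in the mutant, so the gap between genotypes was present from the start and its level was higher at 2-3h in both.

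The 63 members that are not duplicates have short transcripts: a median coding length of 447 bases and a median 3' untranslated region of 172 bases, against 1425 and 325 bases over protein-coding genes listed at all times. Across them the Spearman correlation of the wild type log2 ratio over time was -0.11 with 3' untranslated length and -0.16 with coding length, a description over genes that share their libraries.

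Of the 24 duplicates, genes that in flies are mostly known from the testis, 9 were listed at 2-3h, 4 at 1-2h and 1 at 0-1h. Their parent gene was higher in every case, by 4.13 times for ND-51L1 to 4123 times for ATPsynbetaL in wild type at 2-3h. ND-51L1 stood in wild type at 0.606, 0.596 and 0.551 TPM at 0-1h, 2.33, 1.23 and 3.41 at 1-2h and 10.6, 13.9 and 14.0 at 2-3h. In the mutant, in the same order of collections, it stood at 0.723, 0.391 and 0.234 TPM, then at 3.09, 2.52 and 3.69 and then at 9.55, 12.9 and 14.4. Its mean TPM at 2-3h was 21.9 times that at 0-1h in wild type and 27.4 times in the mutant. As a ratio of (TPM + 1) this was 8.71 and 9.18, the largest of the 64 members listed at all times, and ND-51 had the opposite course, with means of 142 TPM at 0-1h and 52.9 TPM at 2-3h in wild type. ND-51L1 lies wholly inside Smurf, a ubiquitin ligase gene, on the same strand, and Smurf averaged 145 TPM at 0-1h and 176 TPM at 2-3h in wild type. How much of the signal of ND-51L1 came from Smurf reads was not tested.

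The other 8 duplicates were near the limit of what was listed. SdhAL at 2-3h had TPM values of 0.798, 0.755 and 0.7001 in wild type and 1.47, 1.21 and 1.23 in orb2-delta-zz. Its groups did not overlap, and its change of 0.73 (SE 0.220, limma adjusted p = 0.157) did not pass. It lies inside CG44837 on the same strand. ATPsynbetaL had TPM values of 0.225, 0.180 and 0.368 in wild type and 0.135, 0.128 and 0.183 in orb2-delta-zz, and UQCR-11L, inside Acsl on the same strand, had TPM values of 3.32, 2.59 and 0.842 in wild type and 0.675, 0.724 and 2.31 in orb2-delta-zz. On TPM the groups overlapped in both genes.

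Among duplicates of complex IV genes, COX4L had TPM values of 1.59, 1.16 and 0.725 in wild type and 2.14, 1.46 and 1.26 in orb2-delta-zz at 2-3h. COX5BL, which lies just downstream of COX5B on the same strand, had TPM values of 0.903, 1.34 and 0.167 in wild type and 0.658, 0.789 and 1.16 in orb2-delta-zz, and COX7AL had TPM values of 1.71, 0.529 and 1.23 in wild type and 1.14, 0.468 and 0.541 in orb2-delta-zz. In these 3 genes the groups overlapped, and the 95% confidence interval of the change of COX5BL, -1.28 to 2.01, was too wide to set beside that of COX5B. SdhBL, a duplicate of SdhB, had TPM values of 2.27, 1.91 and 1.06 in wild type and 2.00, 1.80 and 2.40 in orb2-delta-zz. ND-51L2, a further duplicate of ND-51 inside Trpm on the same strand, had TPM values of 2.42, 2.12 and 1.74 in wild type and 1.10, 1.78 and 1.95 in orb2-delta-zz. In these as well the groups overlapped. Of 13 testis markers, 2 were listed at 0-1h and 1-2h and 3 at 2-3h.

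**Figure D5:**
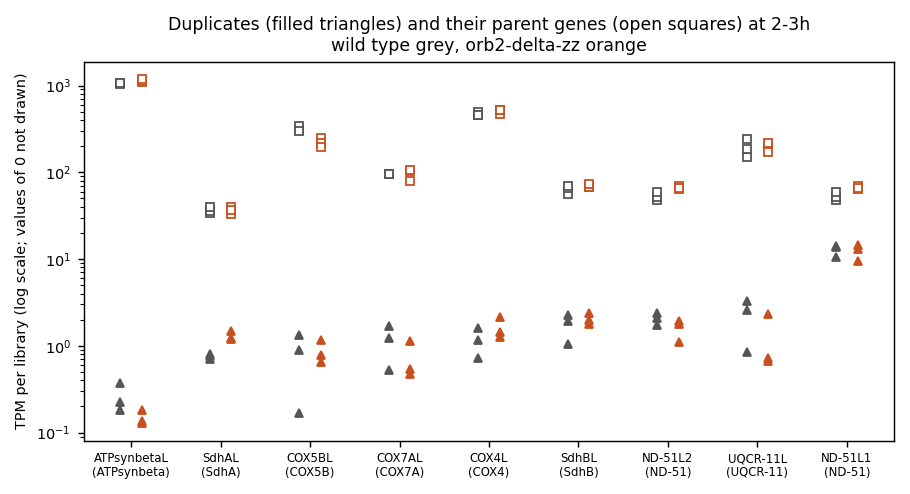
TPM per library at 2-3h (vertical axis, log scale) of the 9 listed duplicates (filled triangles) and of their parent genes (open squares), wild type in grey and orb2-delta-zz in orange. Each parent lies above its duplicate, by the least in ND-51L1.

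Subunits whose symbols fall outside the naming rule were examined as a list of 11, of which 9 were listed. At 0-1h 1 of the 9 was called higher and 3 lower (21.3% of all genes called), at 1-2h 2 lower (7.37%) and at 2-3h 2 lower (3.28%). Cyt-c-p, the main cytochrome c, which carries electrons from complex III to complex IV, had normalized counts at 0-1h of 4906, 5742 and 5375 in wild type and 3157, 3118 and 3488 in orb2-delta-zz, without overlap. It changed by -0.71 (SE 0.0654, limma adjusted p = 5.67e-05) in that collection, by -0.71 (SE 0.119, limma adjusted p = 0.0122) in the next and by -0.60 (SE 0.0888, limma adjusted p = 0.0203) in the last. The gene ox, which encodes a small subunit of complex III, had normalized counts of 1124, 1059 and 906 in wild type and 609, 441 and 590.3 in orb2-delta-zz. In the order of the collections ox changed by -0.92 (SE 0.130, limma adjusted p = 0.000901), -0.84 (SE 0.117, limma adjusted p = 0.00583) and -0.85 (SE 0.165, limma adjusted p = 0.0466). Both genes were thus called lower at all 3 times. Of the 7470 genes tested at all times, 1.85% were called in the same direction at each, and of the 64 members 0 were.

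Others in that list were called at 0-1h alone. The alpha subunit gene of the ATP synthase, blw, had normalized counts of 38450.0, 41820.0 and 38020.0 in wild type and 33980.0, 34390.0 and 33340.0 in orb2-delta-zz and a change of -0.22 (SE 0.0548, limma adjusted p = 0.0204). Cyt-c1L, a duplicate of the cytochrome c1 gene, was at 13.5 to 24.4 normalized counts in the mutant against 4.02 to 5.21 in wild type, a low level. The 13 protein-coding genes of the mitochondrial genome were not in the tables used here and were not analysed.

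Genes of neighbouring mitochondrial functions were called at 0-1h in 1 of 11 assembly factors, 3 of 14 citrate cycle enzymes, 1 of 13 regulators and 2 of 5 carriers listed, against 21.3% of all genes. Among 11 listed assembly factors 1 was called at 0-1h and 0 later. That gene, Scox, a copper-delivery factor for complex IV, had 1473, 1563 and 1447 in wild type and 2044, 2170.0 and 2456 in orb2-delta-zz, all mutant libraries being higher, and a change of 0.57 (SE 0.0714, limma adjusted p = 0.000421) at 0-1h. The values for Scox at 1-2h and 2-3h were 0.51 (SE 0.143, limma adjusted p = 0.0787) and 0.78 (SE 0.177, limma adjusted p = 0.0757), which did not pass. Among 14 listed enzymes of the citrate cycle and pyruvate dehydrogenase, Idh3a and Idh3b, subunits of isocitrate dehydrogenase, fell at 0-1h by 0.21 and 0.14 on the log2 scale (limma adjusted p = 0.00362 and 0.0331) and muc, a subunit of pyruvate dehydrogenase, rose by 0.21 (limma adjusted p = 0.00456), with 0 of 14 called later.

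Of 13 listed regulators of mitochondrial function and transcription, clu, which encodes an RNA-binding protein needed for mitochondrial function, rose at 0-1h by 0.29 (limma adjusted p = 0.00226), with 0 called later. Of 5 listed carrier genes, Ant2, an ADP/ATP carrier gene at 1.74 TPM in wild type at 0-1h, fell at 0-1h by 1.19 and at 1-2h by 1.64 on the log2 scale (limma adjusted p = 0.0412 and 0.0301). Ucp4A, a member of the uncoupling protein family, rose at 0-1h by 0.20 (limma adjusted p = 0.0439), and 0 of the 5 were called at 2-3h.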

How the data were processed

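Total RNA of whole embryos was measured in 18 libraries, 3 for each of 6 groups (2 genotypes at 3 times). Trim Galore 0.6.5, Salmon 1.9.1 and DESeq2 1.42.1 are named in the submitters' processing notes; the sources used here give no genome build, annotation or strand setting. The tables the authors deposited hold, separately for each time, normalized counts (a signal, scaled between libraries) and TPM. Normalized totals of 3.36e+07 to 3.85e+07 reflect the authors' scaling. Between 25.4% and 64.8% of low values came out as whole reads within 0.1, so reads could not be recovered, depth is unknown and no count test was used. There were 0 library columns without a sample.

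Genotypes were compared within each time with limma 3.58.1 in R 4.3.3 (trend) on log2(normalized count + 1). Genes whose 6 libraries averaged under 10 were left out. P-values were two-sided, adjusted by Benjamini-Hochberg over every gene tested, and called at 0.05. On this scale the change of low genes is understated. Differences between times used a joint limma fit of the 18 libraries. Changes over time within a genotype were not tested, since tables were normalized separately. The script was tested on simulated data. Alternatives were another pseudocount (5), no filter and a stricter one (50), rescaling by trimmed means of log ratios (computed directly from the normalized counts), TPM, the replicate number as a block, limma with robust estimation and no trend (changed together), separate fits per time, and leaving out each library.

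The labels number replicates 1 to 3 in each genotype. At 1-2h the deviations of same-numbered libraries from their group means correlated at 0.159, 0.129 and 0.173, and those of unlike-numbered libraries at -0.122 to -0.0174. The numbers were therefore treated as possible pairs there, from the data rather than the labels. At 2-3h unlike-numbered libraries reached 0.180, so correlations of this size do not settle whether the numbers pair libraries. Same-numbered libraries correlated at 0.0246, -0.0608 and 0.0044 at 0-1h and, in the opposite direction, at -0.126, -0.332 and -0.205 at 2-3h.

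Symbols were matched for 9171 of 9236 identifiers. Members, companion lists and tests were chosen with earlier results of these data known. Members named with values were those called, at most 8 per time, the 3 highest and lowest in wild type TPM at 0-1h, the 3 with the largest rise and fall in wild type TPM among members at 10 TPM or more, duplicates, the Sdh subunits and those listed for a closer look; members given outside that rule were chosen after their values were seen. The list symbols Cox15, Cox18, Cox19, Coa3, Ecsit, Nc73EF and myc had no match.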

Additional observations from a re-analysis of the deposited data

Results flagged for a closer look

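In ATPsynbeta all mutant libraries lay below all wild type libraries at 1-2h and above them at 2-3h. Normalized counts were 63992, 57799 and 57166 in wild type and 55735, 54182 and 53865 in orb2-delta-zz at 1-2h, a change of -0.13 (SE 0.0837, limma adjusted p = 0.404), and 41907, 43399 and 43667 in wild type and 45319, 44684 and 43866 in orb2-delta-zz at 2-3h, a change of 0.054 (SE 0.0636, limma adjusted p = 0.728). The difference of the effects was 0.18 (SE 0.0879, limma adjusted p = 0.515).

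UQCR-C1, a core protein of complex III, had normalized counts of 8287, 8105 and 7882 in wild type and 7676, 7530.2 and 7493 in orb2-delta-zz at 0-1h, the mutant libraries all lower, with a change of -0.10 (SE 0.0381, limma adjusted p = 0.103). Its counts at 2-3h were 4697, 4937 and 5023 in wild type and 5708, 5315 and 5525 in orb2-delta-zz, the mutant libraries all higher, with a change of 0.17 (SE 0.0883, limma adjusted p = 0.400). The difference of the effects was 0.27 (SE 0.0909, limma adjusted p = 0.213), so neither gene passed the direct test.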

How the results depend on the processing

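The number of members called at 0-1h was 5 with the replicate number as a block, 5 with robust estimation and no trend, which were changed together, and 3 to 9 when single libraries were left out, against 8. At 1-2h it was 1 with the block, 1 with robust estimation and no trend, where COX5B lost its call (limma adjusted p = 0.0658), and 0 to 3 leaving out single libraries, against 2. At 2-3h it was 2 on TPM and 0 to 4 leaving out single libraries, against 0. Over all genes, leaving out single libraries gave 1096 to 1624 calls at 0-1h against 1610, 203 to 1261 at 1-2h against 597, and 77 to 1666 at 2-3h against 296. With the replicate block 55 genes were called at 2-3h and 1160 at 0-1h. Same-numbered libraries did not vary together at these 2 times, with correlations of 0.0246, -0.0608 and 0.0044 at 0-1h and -0.126, -0.332 and -0.205 at 2-3h, so the block calls there say little of the effects. The cause of these shifts was not tested.

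On TPM the share of all calls that were higher was 63.4%, 58.9% and 57.0% at the 3 times, against 52.4%, 47.7% and 47.3% on normalized counts, and the median of all genes moved by 0.034, 0.085 and 0.045 on the log2 scale. Members whose genotype effect differed numbered 1 between 1-2h and 2-3h on TPM (ND-B14.5A), and, leaving out single libraries, 0 to 1 between 0-1h and 2-3h and 0 to 3 between 1-2h and 2-3h, against 0. The counts above 0 came without wild type replicate 1 of 2-3h, when 16.7% and 18.7% of all genes passed.

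As mean log2 normalized counts over genes in place of summed TPM, the complexes differed by -0.051 (I) and -0.040 (V) at 0-1h, by -0.013 (I), -0.12 (IV) and -0.043 (V) at 1-2h, and by 0.091 (I), 0.023 (III) and -0.060 (V) at 2-3h. The log2 ratios of the sums were 0.062, 0.0017, 0.072, -0.056, 0.021, 0.16, 0.075 and 0.081 in the same order. Low duplicates weigh as much as other genes in such means. Without them, a setting chosen after seeing the data, the means were -0.036 (I) and -0.040 (V) at 0-1h, -0.021 (I), -0.12 (IV) and -0.043 (V) at 1-2h, and 0.11 (I), 0.019 (II), 0.17 (III), -0.070 (IV) and 0.00038 (V) at 2-3h, where the ratios of the sums for II and IV were 0.11 and -0.012.

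Changes turned sign in genes near 0. Leaving out single libraries, they ran from -0.011 to 0.041 for SdhA at 0-1h, -0.015 to 0.10 for SdhA at 1-2h, -0.14 to 0.029 for SdhA at 2-3h, -0.37 to 0.0099 for ND-B12 at 1-2h, -0.041 to 0.23 for ND-MLRQ at 1-2h, -0.064 to 0.079 for ATPsyndelta at 2-3h and -0.0020 to 0.15 for SdhB at 2-3h. For SdhA this was so without wild type replicate 1 (-0.011) and mutant replicate 2 (-0.0032) at 0-1h, without wild type replicate 3 at 1-2h (-0.015), and at 2-3h on TPM (0.0032) and without wild type replicate 3 (0.029) or mutant replicate 2 (0.020). For ATPsyndelta at 2-3h it was so without wild type replicate 2 (-0.018) or 3 (-0.055) or mutant replicate 1 (-0.064). Without wild type replicate 1 it held for ND-B12 (0.0099) and ND-MLRQ (-0.041) at 1-2h and for SdhB at 2-3h (-0.0020). Depth could not be read from the files, so its part in the wide errors of the duplicates is unknown.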
